A study of Mus musculus with 4 samples.

Results

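The tubulin family was followed through 9 genes in cultured mouse neural stem cells. They are the α-tubulin genes Tuba1a, Tuba1b and Tuba1c and the β-tubulin genes Tubb2a, Tubb2b, Tubb3, Tubb4b, Tubb5 and Tubb6. Members were all entries of the count table whose gene identifier carries one of these symbols in the GENCODE M21 annotation. They were 9 of 14949 genes with reads, and they held 31 of the 46637 isoform entries that name a gene. All 9 passed the filter on low counts that left 9882 genes for comparison.

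Neural stem cells came from embryonic neocortices of mice with floxed alleles and were grown as neurospheres. Lipid nanoparticles (LNP) were added for 3 days, and total RNA was read as long cDNA reads on a Nanopore instrument, with 1 library per condition and no replicate. The control was Tut1f/f, whose cells carry floxed Tut1 and received empty LNP. The other 3 libraries received LNP with Cre mRNA and are labelled as follows. Tut1f/f;Cre stands for Tut1 deletion and Trp53f/f;Cre for deletion of Trp53, the p53 gene. Tut1f/f;Trp53f/f;Cre stands for both deletions. For short, the last 2 are called the library labelled Trp53 and the library labelled double. Cre removes exon 2 of Tut1, and gene counts also take in mRNA without that exon, so they do not check the Tut1 deletion. TUT1 is the terminal uridylyltransferase that matures the 3′ end of U6 snRNA. Against Tut1f/f, Cre mRNA and gene deletion cannot be told apart, since each deleted culture received Cre mRNA. The Cre mRNA libraries differ from each other in the deletions they are labelled with and not in Cre mRNA. Tut1f/f and the library labelled double also differ from the other libraries in the sex-linked genes given below. In comparisons across these groups, sex of the culture cannot be told apart from deletion or Cre mRNA. Values below run in the order Tut1f/f, Tut1f/f;Cre, labelled Trp53, labelled double, unless a library is named.

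Microtubules are polymers of dimers made of α-tubulin joined to β-tubulin. Vertebrates carry several genes for each, and their products, called isotypes, differ mostly in the acidic C-terminal tail that projects from the microtubule. Enzymes add and remove glutamate and other groups on these tails, and α-tubulin is also acetylated. Tubulin mRNAs are under autoregulation: when free dimers are abundant, the factor Ttc5 binds the start of the growing tubulin chain on the ribosome and the mRNA is degraded. In the developing brain Tuba1a is the main α-tubulin gene of newborn neurons, Tubb3 is the classical neuronal β isotype and Tubb5 is the isotype expressed in most dividing cells.

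The first 24 coding bases of 8 members are shown because their opening 4 codons, in capitals, encode the stretch that autoregulation reads. Sequences are from the GENCODE M21 transcripts, 5′ to 3′. The 3 α genes shared 1 identical run of 12 bases, and the 5 β genes printed carried 4 different runs.
Tuba1a: ATGCGTGAGTGCatctccatccat
Tuba1b: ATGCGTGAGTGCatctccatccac
Tuba1c: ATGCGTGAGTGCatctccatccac
Tubb2a: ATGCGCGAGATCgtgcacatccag
Tubb2b: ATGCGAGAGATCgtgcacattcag
Tubb3: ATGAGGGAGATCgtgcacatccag
Tubb4b: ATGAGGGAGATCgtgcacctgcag
Tubb5: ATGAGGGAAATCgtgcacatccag

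The last 60 coding bases before the stop codon hold the tail, where isotypes differ most, and they are shown for 5 β genes. Glutamate codons are in capitals, and they made up 8 (Tubb2a, Tubb2b and Tubb3) to 10 (Tubb4b) of the last 20 codons in these genes.
Tubb2a: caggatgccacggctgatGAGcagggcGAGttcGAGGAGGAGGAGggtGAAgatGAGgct
Tubb2b: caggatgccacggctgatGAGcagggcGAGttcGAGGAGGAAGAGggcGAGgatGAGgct
Tubb3: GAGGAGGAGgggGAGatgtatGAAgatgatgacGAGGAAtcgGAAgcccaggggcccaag
Tubb4b: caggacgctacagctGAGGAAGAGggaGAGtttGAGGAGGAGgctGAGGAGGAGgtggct
Tubb5: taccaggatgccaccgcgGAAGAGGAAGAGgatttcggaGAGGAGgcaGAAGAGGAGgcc

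Tuba1a and Tuba1b were identical over 98.3% of their coding bases, and Tubb2a and Tubb2b over 96.5%. Among the 15 pairs of β genes, identity ran from 81.1% (Tubb5 and Tubb6) up to the 96.5% of the Tubb2 pair. Over the last 60 bases Tubb2a and Tubb3 shared 48.3%, the lowest value of a β pair, and the highest belonged to the Tubb2 pair. How the counting step shared reads between near-identical copies is not given in the sources used here, so the split within the Tuba1a and Tuba1b pair and within the Tubb2 pair is uncertain.

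The 250 bases upstream of the RefSeq start (GRCm38.p6) are printed for the 3 β genes whose windows lie outside, or almost outside, the annotated transcript. Tubb5 is shown because its level differed from the control in the opposite direction to Tubb2a and Tubb4b. Capitals mark motifs on either strand. These are the CCAAT box, spelled CCAAT, the GC box, spelled GGGCGG, and the TATA box, spelled TATAAA, and no spelling contains another.
Tubb5, chr17:35838302-35838551, minus strand: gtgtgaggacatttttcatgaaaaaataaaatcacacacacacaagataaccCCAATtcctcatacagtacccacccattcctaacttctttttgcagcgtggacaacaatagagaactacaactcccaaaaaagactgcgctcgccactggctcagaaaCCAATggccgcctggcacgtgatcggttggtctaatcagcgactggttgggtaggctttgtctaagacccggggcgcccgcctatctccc
Tubb2a, chr13:34078009-34078258, minus strand: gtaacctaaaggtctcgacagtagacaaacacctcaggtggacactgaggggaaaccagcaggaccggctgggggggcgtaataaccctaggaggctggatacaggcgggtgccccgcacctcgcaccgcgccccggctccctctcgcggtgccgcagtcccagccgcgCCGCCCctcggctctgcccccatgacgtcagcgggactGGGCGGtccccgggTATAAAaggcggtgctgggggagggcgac
Tubb4b, chr2:25224703-25224952, minus strand: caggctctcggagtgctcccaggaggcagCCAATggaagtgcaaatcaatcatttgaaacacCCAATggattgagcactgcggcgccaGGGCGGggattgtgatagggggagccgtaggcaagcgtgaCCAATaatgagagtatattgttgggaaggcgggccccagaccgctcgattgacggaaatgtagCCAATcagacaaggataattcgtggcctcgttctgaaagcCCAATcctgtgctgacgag

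Tubb5 held 2 CCAAT boxes and none of the others, Tubb2a held 2 GC boxes and 1 TATA box, and Tubb4b held 5 CCAAT boxes and 1 GC box. Promoters were matched for 7 of 9 members, of which 5 held a CCAAT box, 5 a GC box and 1 a TATA box. Among 32851 RefSeq promoters of that length, 33.8%, 32.7% and 12.4% held these motifs. A match describes letters and not a bound site.

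The libraries held 3936827 to 5125888 reads, of which 2863392 to 4244467 fell on entries naming a gene. Counts were scaled to counts per 1000000 gene-named reads (CPM) with TMM factors, which correct for composition. Trp53 had 175, 67, 10 and 19 reads, with log2 ratios to the control of −0.97, −3.90 and −2.78, so it was lowest in both libraries labelled for its deletion. Whole-gene Tut1 did not run with the labels. It had 37, 11, 14 and 27 reads, and the log2 ratio of its CPM to the control was −0.03 (−0.81 to 0.72) in the library labelled double. Reads without the deleted exon 2 would be counted too, and exon 2 alone was not measured here. The female transcript Xist had 0, 44, 49 and 0 reads, and the Y-linked gene Eif2s3y had 155, 0, 0 and 60. The ribosomal RNA entry CT010467.1 stood at 197517, 96236, 89506 and 52114 CPM. Neural stem cell markers were present, with 9 of 10 detected and a summed level of 11818 to 13168 CPM. Among them 4, 3 and 1 were called higher than in the control and 0, 0 and 1 lower, with median log2 ratios of 0.86, 0.91 and 0.34. Over all genes 13.1%, 13.2% and 10.1% were called higher and 12.8%, 14.3% and 9.94% lower. Neuron markers summed to 340 to 497 CPM over 9 of 13 genes, with Dcx at 2 to 6 reads and Stmn2 and Neurod1 at 0 or 1 read, and 0 of the 6 that could be tested were called against the control. Between Cre mRNA libraries, 1 of 6 was called lower in the library labelled double and 1 of 6 in Tut1f/f;Cre, each against the library labelled Trp53. Astrocyte markers (4 of 5 detected) summed to 382, 242, 219 and 314 CPM and oligodendrocyte lineage markers (6 of 7) to 351, 589, 689 and 467 CPM. Against the control, 1, 1 and 0 of 3 astrocyte markers tested were called lower and 0, 0 and 1 higher. Of 4 oligodendrocyte lineage markers tested, 1, 1 and 0 were called higher and 0 lower. Of 5 microglia markers 1 had reads, and no endothelium marker did. The part of these differences in the tubulin results was not tested.

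Tubulin mRNA was most abundant in the control. The 9 genes together held 31750, 12465, 13537 and 18206 reads, or 7908, 4142, 3962 and 6068 CPM. Against the control the summed level was 1.91-fold lower in Tut1f/f;Cre, nearly 2-fold lower in the library labelled Trp53 and 1.30-fold lower in the library labelled double. In log2 units these ratios were −0.93 (95% interval −0.96 to −0.90) for the first and −0.38 (−0.41 to −0.36) for the last, with an interval of −1.03 to −0.97 for the library labelled Trp53. The intervals are exact for counting and carry no variation between cultures. In bulk RNA, fewer expressing cells and less RNA per cell cannot be told apart.

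A member was called lower or higher when its CPM differed at least 2-fold and the 95% counting interval left out equality. In Tut1f/f;Cre, 5 of 9 members were called lower, beside 12.8% of all 9882 genes and 6.74% of the 1262 genes at 100 CPM or more. They were Tuba1a, Tuba1b, Tubb2a, Tubb4b and Tubb6. Scaled to library totals, Tubb2a was no longer called there and 4 members were, beside 11.1% of all genes. In the library labelled Trp53, 5 were again called lower, beside 14.3% of all genes and 8.08% of the high ones, and they were those same genes. Both comparisons share the control library. In the library labelled double, 1 member, Tubb6, was called lower, beside 9.94% of all genes and 3.57% of the high ones. No member was called higher, whereas 13.1%, 13.2% and 10.1% of all genes were, and 5.39%, 6.58% and 4.2% of the high ones. Scaled to library totals, the library labelled double had 7.62% of all genes lower and 13% higher. The members' median log2 ratio was −1.08, −1.21 and −0.45, beside 0.02, 0.02 and −0.02 over all genes.

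**Figure D1:**
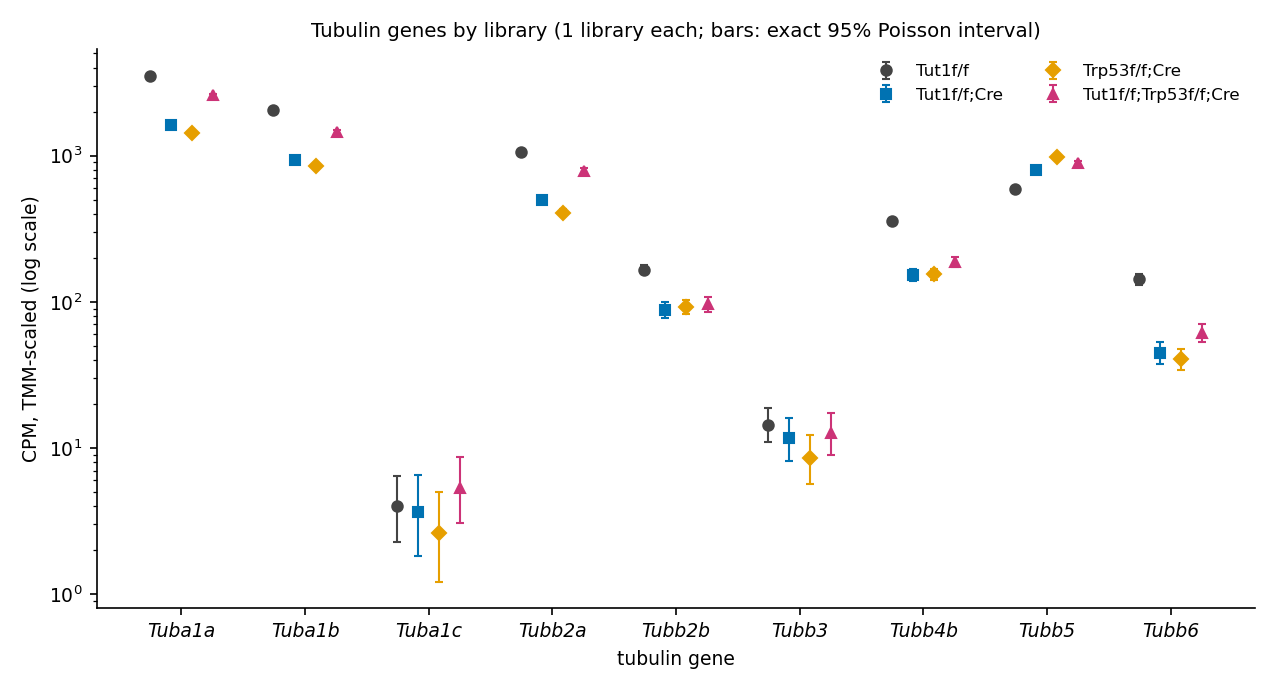
Level of each tubulin gene in each of the 4 libraries, in TMM-scaled CPM on a log axis, with exact 95% Poisson intervals as bars. The control point is the highest for 7 of the 9 genes, and the lowest for Tubb5.

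The order of the genes depended on whether CPM was divided by the length of the longest annotated transcript. Per kilobase, Tuba1a stood first in each library, as it did by CPM. Its level was 1953, 901, 791 and 1432 CPM per kb, and Tuba1b came next at 1184, 532, 485 and 832 CPM per kb. In the control the order went on with Tubb2a at 653, Tubb4b at 223, Tubb5 at 222, Tubb6 at 81.2, Tubb2b at 76.3, Tubb3 at 7.73 and Tuba1c at 2.01 CPM per kb. Per kilobase, counting intervals overlapped between Tubb4b and Tubb5 and between Tubb6 and Tubb2b. By CPM, Tubb5 (588) lay above Tubb4b (357) in the control, with intervals that did not overlap, while Tubb6 and Tubb2b still overlapped. Per kilobase, Tubb5 overlapped Tubb2a in Tut1f/f;Cre (299 and 310 CPM per kb), exceeded it in the library labelled Trp53 (372 and 252) and stayed under it in the library labelled double (334 and 490). Without the division by length Tubb5 lay above Tubb2a in all 3 Cre mRNA libraries, at 792 against 499, 986 against 406 and 884 against 790 CPM.

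Tuba1a (chr15:98949837-98953703, mm10, minus strand, 4 exons) is the α isotype of the growing brain. It had 14139, 4886, 4876 and 7744 reads, or 3522, 1624, 1427 and 2581 CPM. The control was highest, the library labelled with both deletions came second, and the other Cre mRNA libraries were lowest. Its log2 ratio to the control was −1.12 (−1.16 to −1.07), −1.30 (−1.35 to −1.26) and −0.45 (−0.49 to −0.41). Among 9882 genes Tuba1a ranked 21 in the control and 97, 119 and 54 in the others.

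Tuba1b (chr15:98931425-98934565, minus strand) is the α gene used in most tissues. Its reads were 8282, 2791, 2888 and 4353, or 2063, 928, 845 and 1451 CPM. The libraries fell in the same order as for Tuba1a, with log2 ratios of −1.15, −1.29 and −0.51. The near-constant proportion between both genes is described with the isotype shares. Tuba1c (chr15:99029891-99038110, plus strand) was scarcely read, at 16, 11, 9 and 16 reads. Its ratios of −0.12, −0.60 and 0.42 all had intervals that held 0, the first from −1.38 to 1.07, so no difference of moderate size was detectable at this depth.

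Tubb2a (chr13:34074274-34078007, minus strand) was the most abundant β gene of the control. It had 4221, 1501, 1389 and 2369 reads, or 1051, 499, 406 and 790 CPM. Log2 ratios were −1.08 (−1.16 to −0.99), −1.37 (−1.46 to −1.28) and −0.41 (−0.49 to −0.34). Tubb2b (chr13:34126748-34130466, minus strand), its neighbour and a gene needed for neuronal migration, had 668, 264, 314 and 290 reads, or 166, 87.7, 91.9 and 96.7 CPM. Here the 3 Cre mRNA libraries lay together, with log2 ratios of −0.92, −0.86 and −0.78, under the 2-fold mark. Between pairs of Cre mRNA libraries its ratios of −0.07 to 0.14 had intervals that held 0.

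Tubb4b (chr2:25222160-25224702, minus strand), an isotype of cilia as well as of cytoplasmic microtubules, had 1432, 461, 526 and 561 reads. These were 357, 153, 154 and 187 CPM, again highest in the control and close together in the other libraries. Its log2 ratios were −1.22 (−1.37 to −1.07), −1.21 (−1.36 to −1.07) and −0.93 (−1.08 to −0.79). Tubb3 (chr8:123411424-123422015, plus strand), the neuronal isotype, had only 58, 35, 29 and 38 reads. The interval left out 0 for the library labelled Trp53 alone, at −0.77 (−1.46 to −0.10).

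Tubb6 (chr18:67390717-67402749, plus strand), a minor β isotype, showed the largest ratios of the family. It had 573, 134, 138 and 184 reads, or 143, 44.5, 40.4 and 61.3 CPM. The folds were 3.20, 3.53 and 2.33 lower, or −1.68 (−1.96 to −1.41), −1.82 (−2.10 to −1.55) and −1.22 (−1.47 to −0.98) in log2 units.

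Tubb5 (chr17:35833921-35838306, minus strand), the constitutive β isotype of dividing cells, went the other way. It had 2361, 2382, 3368 and 2651 reads, or 588, 792, 986 and 884 CPM. The control was the lowest library, and the library labelled Trp53 the highest. Log2 ratios were 0.43 (0.35 to 0.51), 0.75 (0.67 to 0.82) and 0.59 (0.51 to 0.67), so each interval lay above 0 and none reached 2-fold.

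**Figure D2:**
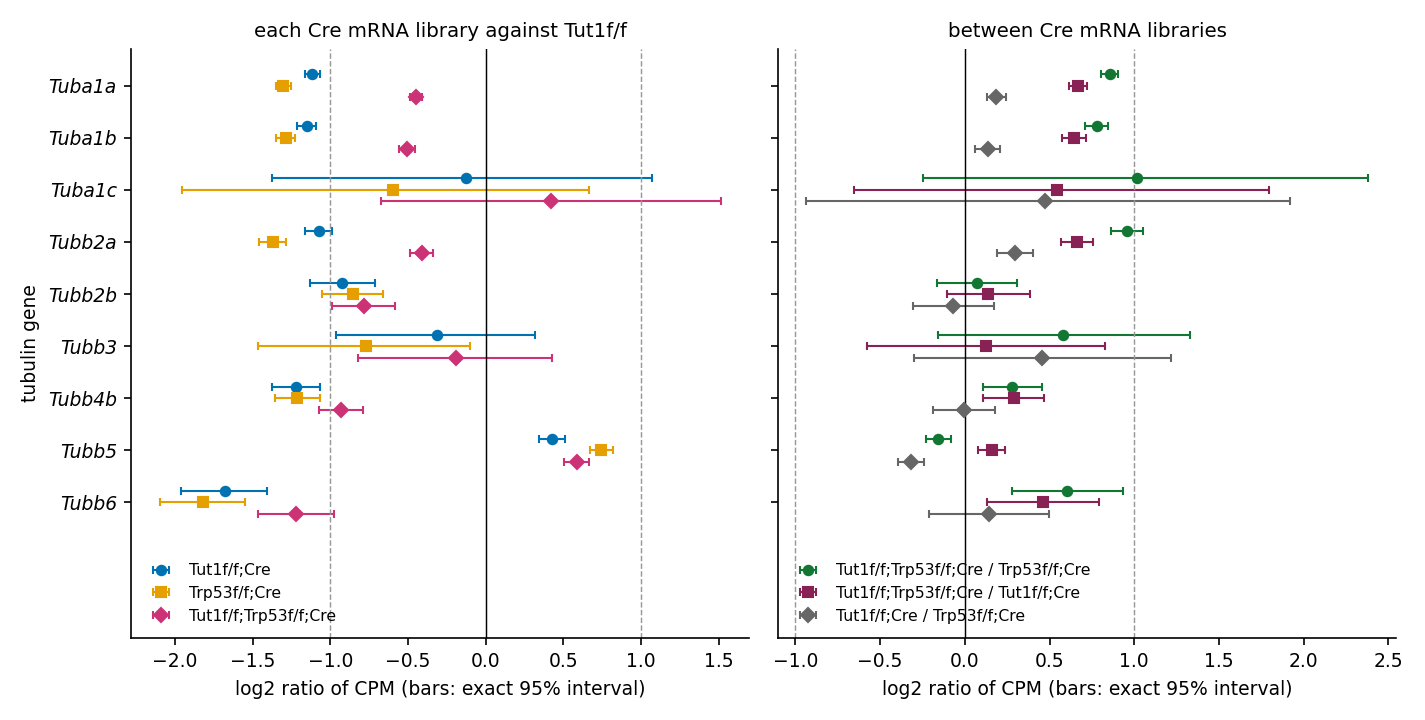
Log2 ratio of CPM for the 9 tubulin genes, with exact 95% counting intervals as bars, the 2-fold marks dashed. On the left each Cre mRNA library is set against Tut1f/f, and Tubb5 is the gene whose 3 intervals all lie above 0. On the right Cre mRNA libraries are set against each other, and no gene is called.

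Among the Cre mRNA libraries no member was called in either direction. Over all genes 7.06% were called between the libraries labelled double and Trp53, 4.58% between the library labelled double and Tut1f/f;Cre, and 3.38% between Tut1f/f;Cre and the library labelled Trp53. Smaller differences still lay outside the counting error. Against the library labelled Trp53, the library labelled with both deletions had 1.81-fold more Tuba1a, 1.72-fold more Tuba1b, 1.94-fold more Tubb2a and 1.52-fold more Tubb6. Its ratio for Tubb4b was 0.28 (0.11 to 0.46) and for Tubb5 −0.16 (−0.23 to −0.08) in log2 units. Set against Tut1f/f;Cre, that library had log2 ratios of 0.67 for Tuba1a, 0.65 for Tuba1b and 0.66 for Tubb2a. The family sum was nearly equal in Tut1f/f;Cre and in the library labelled Trp53, at a log2 ratio of 0.06 (0.03 to 0.10), but its members differed in opposite directions. Without Tubb5 the ratio was 0.17 (0.13 to 0.21), with Tubb2a at 0.30, and Tubb5 stood at −0.32 (−0.39 to −0.24).

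Shares within the family do not depend on the scaling of libraries. Tuba1a supplied 63.0%, 63.6%, 62.7% and 63.9% of α reads, each with a Wilson 95% interval under 2.2 points wide, and these intervals overlapped, while the summed α level was up to 2.46-fold lower than in the control. The β mixture differed between libraries. Tubb5 supplied 25.4% of β reads in the control (24.5 to 26.2%), 49.9% in Tut1f/f;Cre (48.4 to 51.3%), 58.4% in the library labelled Trp53 (57.2 to 59.7%) and 43.5% in the library labelled double (42.3 to 44.8%). Tubb2a went from 45.3% to 31.4%, 24.1% and 38.9%. Tubb4b made up 15.4%, 9.65%, 9.13% and 9.21%, and Tubb6 6.15%, 2.81%, 2.39% and 3.02%. The α genes together held 70.7%, 61.7%, 57.4% and 66.5% of tubulin reads.

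**Figure D3:**
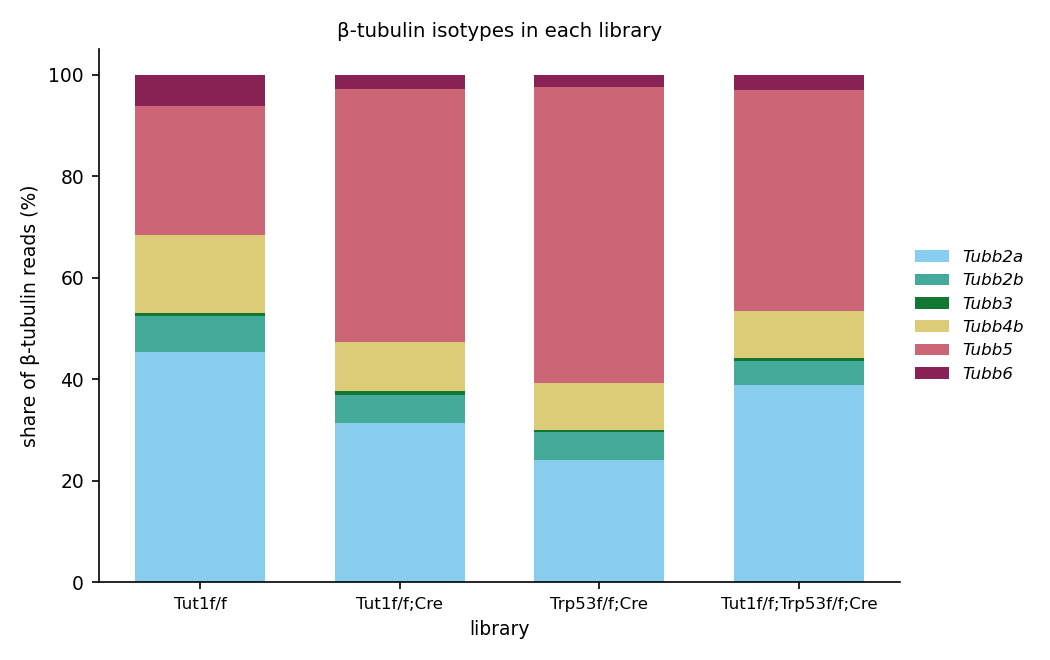
Share of β-tubulin reads (percent) taken by each of 6 β genes in the 4 libraries, stacked to 100. Tubb5 takes 25.4% in Tut1f/f and 43.5 to 58.4% in the Cre mRNA libraries.

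Without Tubb5, the summed β genes and the summed α genes had similar ratios in Tut1f/f;Cre and the library labelled Trp53. The α sum was 5589, 2555, 2275 and 4038 CPM and the β sum without Tubb5 was 1732, 796, 701 and 1147 CPM. Log2 ratios to the control were −1.13, −1.30 and −0.47 for the α sum. They were −1.12, −1.30 and −0.59 for the β genes other than Tubb5. In the library labelled double the intervals did not overlap, at −0.50 to −0.44 for α and −0.65 to −0.53 for β, and Tubb6 (−1.22), Tubb4b (−0.93) and Tubb2b (−0.78) lay lower still. With Tubb5 included the β ratios were −0.55, −0.46 and −0.19.

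The higher Tubb5 level was carried by 1 transcript. ENSMUST00000001566, the coding transcript with 4 exons and a 3′ untranslated region of 1061 bases, had 1705, 2157, 3137 and 2290 reads. Its log2 ratios to the control were 0.76 (0.66 to 0.85), 1.11 (1.03 to 1.20) and 0.85 (0.75 to 0.94). The next Tubb5 entries are named in the table only by a sequencing read and are here called read isoforms A and B. Read isoform A had 388, 125, 131 and 201 reads, and read isoform B had 207, 68, 48 and 104. Both were lower than in the control in each Cre mRNA library. All Tubb5 entries but ENSMUST00000001566 summed to 656, 225, 231 and 361 reads, with log2 ratios of −1.13 (−1.35 to −0.91), −1.27 (−1.50 to −1.05) and −0.44 (−0.63 to −0.25). Those values lay beside the −1.12, −1.30 and −0.45 of Tuba1a.

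**Figure D4:**
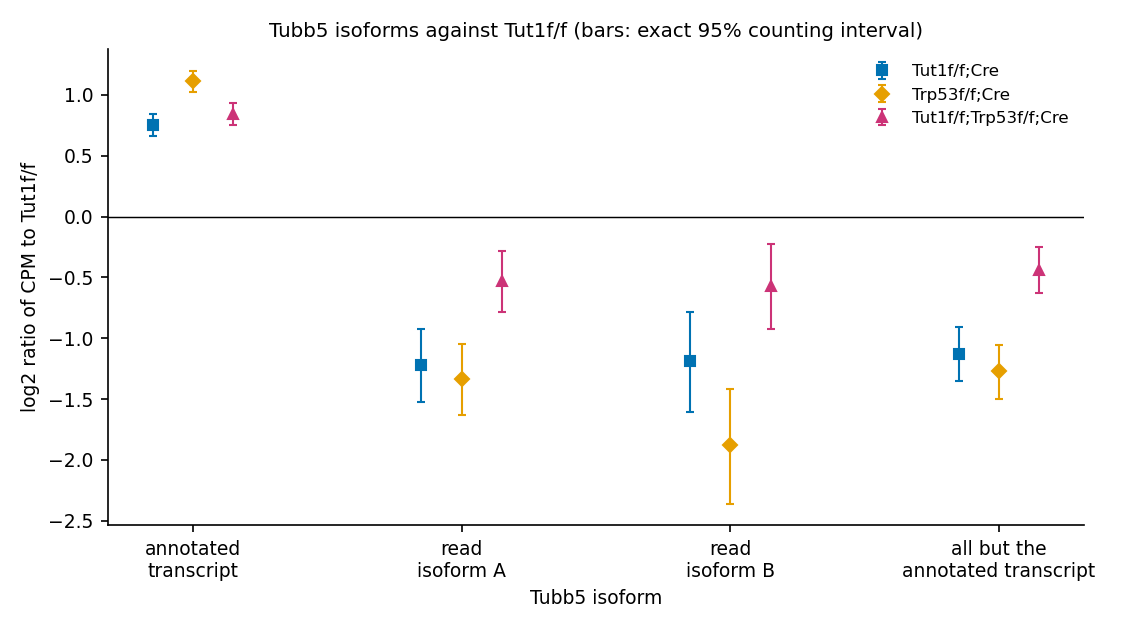
Log2 ratio of CPM to Tut1f/f for the annotated Tubb5 transcript ENSMUST00000001566, read isoforms A and B, and all Tubb5 entries but the annotated transcript, with exact 95% counting intervals as bars. The annotated transcript lies above 0 in the 3 Cre mRNA libraries and the rest below.

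Isoform usage, the share of a gene's reads held by 1 isoform, was compared by Fisher's exact test over all isoforms. A call needed an FDR below 0.05 and a shift of 10 percentage points or more. These tests compare the reads of 2 libraries and not the conditions. In Tut1f/f;Cre 3 of 27 tubulin isoforms were called, beside 8.66% of 18376 isoforms tested. In the library labelled Trp53 4 of 27 were called, beside 9.12%, and in the library labelled double 1 of 27, beside 6.49%. These counts were near the shares over all isoforms. Isoforms of 1 gene share its reads, so their calls are not separate. ENSMUST00000001566 of Tubb5 was called in each, and its share went up by 18.3, 20.9 and 14.2 points. Read isoform A of Tubb5 gave up 11.2 and 12.5 points in Tut1f/f;Cre and the library labelled Trp53. Tubb2b showed the other calls. Its annotated transcript ENSMUST00000075774 had 181 reads in the control and 98 and 149 in the next libraries, and its share was higher by 10 points in Tut1f/f;Cre and 20.4 points in the library labelled Trp53. Tubb2b read isoform A, with 226, 72, 71 and 80 reads, shifted by −11.2 points in the latter.

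In the other abundant members most isoforms followed the gene. The annotated transcript of Tuba1a held 14044, 4829, 4825 and 7693 reads, with log2 ratios of −1.12, −1.31 and −0.45. For Tuba1b the annotated transcript gave −1.14, −1.29 and −0.49, and its main read isoform −1.21, −1.36 and −0.59. All 5 Tubb2a isoforms lay below 0 in each Cre mRNA library. Counting the family's read isoforms with at least 10 reads over a pair of libraries, 16 of 16 were below the control in Tut1f/f;Cre and in the library labelled Trp53, and 15 of 16 in the library labelled double, where Tuba1b read isoform C stood at 0.16 (−0.47 to 0.79). Their median log2 ratio was −1.21, −1.40 and −0.58. Over the read isoforms of all genes the median was −0.07, −0.09 and 0.06. Of those, 4334 of 8436, 4522 of 8514 and 4108 of 8606 were below the control. Isoforms of 1 gene or of near-identical genes are not separate observations.

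A fit over the 4 libraries with Tut1 and Trp53 status as terms (edgeR's quasi-likelihood test, 1 residual degree of freedom) called no member. Its residual is how far the Tut1 difference depends on Trp53 status, and Cre mRNA is not a term. Over the members that dependence ran from −0.59 (Tubb5) to 2.28 (Tubb6) log2 units. The lack of calls therefore does not show that levels were equal. For Tut1 status 0 of 9882 genes were called (0%), with 171 at an unadjusted p under 0.05, none of them a member. DESeq2 also called 0, with 70 genes at that level. The members' log2 differences for Tut1 status ran from −0.55 ± 0.54 (SE) for Tubb6 to 0.43 ± 0.85 for Tuba1c. For Trp53 status 1 gene was called (0.0101%), the pseudogene Rpl3-ps1, named here after its values were seen, and 147 genes had an unadjusted p under 0.05. The members ran from −0.69 ± 0.54 for Tubb6 to 0.45 ± 0.40 for Tubb5. Both terms follow the labels.

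A second fit took the 3 Cre mRNA libraries together against the single control, which is assumed to vary as they do. Its spread comes from 3 libraries of different genotypes, so its p-values hold no variation between control cultures. By edgeR with Benjamini-Hochberg adjustment over 10596 genes, 2 of 9 members fell at least 2-fold, beside 9.28% of genes. In all, 983 genes fell and 825 rose, or 783 and 1018 with library totals. Tubb6 fell by 1.56 ± 0.26 (SE) on the log2 scale with an adjusted p of 0.0015, and Tubb4b by 1.13 ± 0.21 with an adjusted p of 0.0029. Without a fold requirement 6 of 9 fell, beside 11.5% of genes. Tuba1a, Tuba1b, Tubb2a and Tubb2b were the further ones, with log2 changes of −0.92, −0.95, −0.91 and −0.87 and edgeR adjusted p-values of 0.018, 0.014, 0.031 and 0.014. By DESeq2 Tubb2a had an adjusted p of 0.057. Tubb5 stood at 0.58 ± 0.20 with an edgeR adjusted p of 0.052. Tubb3 (−0.42) and Tuba1c (−0.07) did not pass. Leaving out the library labelled Trp53, edgeR called 0 of 10328 genes, though 2947 of them and 6 of the 9 members had an unadjusted p under 0.05. Leaving out the library labelled double, 5 members were called lower (Tuba1a, Tuba1b, Tubb2a, Tubb4b and Tubb6), beside 12.7% of genes. With library totals in place of TMM, 4 of 9 members fell, beside 8.55% of genes, since Tuba1a had an edgeR adjusted p of 0.055 and Tubb2a of 0.082. Tubb5 then had an edgeR adjusted p of 0.031.

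The remaining tubulin genes were rare. Tubb4a, another neural β isotype, had 37, 6, 7 and 10 reads and was called lower in all 3 Cre mRNA libraries, with log2 ratios of −2.21, −2.17 and −1.47. Tubd1, the δ-tubulin of centrioles, had 44, 15, 19 and 24 reads and was called lower in Tut1f/f;Cre at −1.14. Both genes fall outside the naming rule given with the processing. Of 9 genes listed 4 had reads and 3 could be tested.

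Genes that nucleate microtubules, the γ-tubulin ring and the augmin complex, moved unevenly. Of 19 tested, 5, 5 and 2 were called lower and 1 was called higher in each comparison, with medians of −0.22, −0.17 and −0.14. Over all genes 12.8%, 14.3% and 9.94% were called lower and 13.1%, 13.2% and 10.1% higher, so the count for the library labelled double was near that share. Tubgcp3, a ring subunit, had 83, 18, 20 and 22 reads, and Haus4, an augmin subunit, had 83, 7, 18 and 14. Both were called lower in all 3, whereas Cdk5rap2, which anchors the ring at centrosomes, had 99, 218, 307 and 162 reads and was called higher. Tubg1, encoding γ-tubulin itself, was called lower at −1.44 in Tut1f/f;Cre and −1.39 in the library labelled Trp53. Tubgcp4 and Haus5 were the other lower genes in both, and with Tubg1 they were named after their values were seen.

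Tubulin folding needs the chaperonin CCT, prefoldin and the tubulin cofactors. Among 23 genes of folding and autoregulation, 2, 4 and 1 were called lower and 1 higher, with medians of −0.22, −0.25 and −0.07. These counts were near or under the 12.8%, 14.3% and 9.94% of all genes called lower, and under the share called higher. The higher gene was Scaper, a partner of Ttc5 in tubulin mRNA decay, at 27, 59, 64 and 45 reads and log2 ratios of 1.54, 1.48 and 1.16. The lower ones, named after their values were seen, were CCT subunits and a cofactor. Cct2 stood at −1.25 and Cct3 at −1.16 in Tut1f/f;Cre. Cct2 (−1.37), Cct3 (−1.65), Cct4 (−1.12) and Cct7 (−1.03) were called in the library labelled Trp53, and Tbcc (−1.50) in the library labelled double. Ttc5 itself, also named outside the rule, had 157, 101, 96 and 144 reads, or 39.1, 33.6, 28.1 and 48.0 CPM, and was not called.

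Enzymes that modify tubulin were called lower more often than higher. Of 14 tested, 7, 6 and 5 were called lower and 0 higher, with medians of −0.58, −0.48 and −0.45, beside 12.8%, 14.3% and 9.94% of all genes called lower and 13.1%, 13.2% and 10.1% higher, and 5 were lower in all 3 comparisons. The share over all 9882 genes lower in all 3 was 5.69%. Sirt2, a tubulin deacetylase, had 308, 60, 79 and 60 reads. Ttll1, the catalytic glutamylase subunit, had 80, 27, 8 and 19, and its partner Lrrc49 had 141, 43, 42 and 46. Atat1, the α-tubulin acetyltransferase, had 188, 58, 52 and 55 reads, so its CPM in the control lay more than 2-fold above each Cre mRNA library. Ttll12 was the remaining one, with a mean under 20 reads.

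Proteins that bind microtubules showed no common direction. Of 37 tested, 6, 5 and 5 were called higher, near the 13.1%, 13.2% and 10.1% of all genes. Called lower were 1, 3 and 2, beside 12.8%, 14.3% and 9.94% of all genes. In all 3 comparisons 5 were higher, beside 7.33% of all genes, and 1 was lower, beside 5.69%. The list's medians were 0.16, −0.15 and 0.15. Nav1 (71, 140, 171 and 129 reads), the neuronal protein gene Map1b (44, 96, 99 and 91), the centrosomal gene Tacc1 (147, 281, 284 and 288) and the spindle pole gene Numa1 (24, 47, 62 and 68) were each lowest in the control, by CPM too. Camsap1 was the remaining higher gene, and Mapre3, an end-binding protein gene, was lower in all 3, and both were named after their values were seen. The 8 division markers summed to 1601, 1363, 1584 and 1717 CPM, with median log2 ratios of −0.37, −0.18 and 0.09. Against those medians Mki67, the Ki-67 proliferation marker, was called higher in all 3, at 58.0, 193, 239 and 167 CPM, while Ccnb1, cyclin B1, was called lower at −1.32 in Tut1f/f;Cre and −1.20 in the library labelled Trp53. Among the stem cell markers, whose calls went both ways, Hes1, a Notch target, was called higher in all 3, at 148, 503, 464 and 445 CPM.

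The genes whose profile over the 4 libraries lay nearest to the summed family were sought among 1256 genes at 100 CPM or more, by Euclidean distance of centred log2(CPM + 0.5). With 4 points that share their libraries, this is a description. The nearest were Impdh2 (distance 0.05), Vdac1 (0.05), Ddx39 (0.10), Acat1 (0.10) and Tagln2 (0.11). Impdh2 stood at 216, 112, 108 and 172 CPM and Vdac1 at 545, 297, 273 and 416 CPM.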

How the data were processed

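Nanopore cDNA-PCR libraries of mouse neural stem cells, 1 per group, were analysed from 1 isoform table of raw read counts deposited by the authors, with no normalization. The submitters' processing notes name build mm10; the aligner and isoform caller for these libraries are not given in the sources used here. Of 255164 entries, 46637 name a gene, and their counts were summed per gene with GENCODE M21 symbols (14936 of 14949 genes matched). The 208527 entries without a gene, 17.2 to 30.2% of reads, stayed out of library sizes. No count column was unmapped (0). Tubulin members and gene lists were chosen with earlier results of these data known.

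CPM used edgeR 4.0.16 TMM factors in R 4.3.3. Ratios carry exact conditional 95% intervals and shares Wilson 95% intervals (scipy), which cover counting error only, and PCR reads are not independent molecules. A count of 0 allows up to 3 reads, 0.707 to 1.05 per 1000000 gene-named reads before TMM scaling. A call needed 2-fold with the interval off equality. edgeR quasi-likelihood fits used filterByExpr, Benjamini-Hochberg adjustment, an FDR of 0.05 and 2-fold; DESeq2 1.42.0 was the alternative. Usage tests needed 20 gene reads per library and 10 isoform reads over the pair. The scripts were tested on simulated data. Named genes are all members, isoforms holding at least 5% of their gene or called (at most 4 per gene), at most 4 genes per list called alike in all 3 libraries with a mean of at least 20 reads, and the 5 nearest profiles. Alternatives were library totals, DESeq2 size factors, annotated transcripts only, pseudogene reads added, other thresholds and left-out libraries, with those added after seeing the data named as such. P-values of the Cre mRNA fit measure the spread between libraries of different genotypes, since no group has a second library. Those of the fit with Tut1 and Trp53 status rest on 1 residual degree of freedom. Fisher's p-values cover the counting of reads only.

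Promoter sequences are RefSeq's (GRCm38.p6) and coding sequences are GENCODE M21's. Gm49450 overlaps Tuba1a and Tuba1b on the same strand (0 to 3 reads) and Gm41396 lies antisense to Tuba1b (1 to 5 reads). The ends of the α coding sequences are not reported here.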

Additional observations from a re-analysis of the deposited data

Results flagged for a closer look

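For 6 members the difference between the libraries labelled with and without Tut1 pointed in opposite directions depending on the Trp53 label, with counting intervals off 0 on both sides. The share of all genes that meet this rule was not computed, so the count does not set tubulin genes apart. The difference between the contrasts was not tested, since each rests on 1 library per side. Whole-gene Tut1 reads were 37 and 11 in Tut1f/f and Tut1f/f;Cre and 14 and 27 in the libraries labelled Trp53 and double; they include mRNA without the deleted exon 2 and do not check the deletion. Trp53 reads ran with both Trp53 labels, at log2 ratios to Tut1f/f of −3.90 and −2.78. Tuba1a had a log2 ratio of −1.12 in Tut1f/f;Cre against Tut1f/f and 0.86 in the library labelled double against that labelled Trp53, a gap of 1.97. The gap was 1.93 for Tuba1b (−1.15 and 0.78), 2.03 for Tubb2a (−1.08 and 0.96), 1.5 for Tubb4b (−1.22 and 0.28) and 2.28 for Tubb6 (−1.68 and 0.60). Tubb5 went from 0.43 to −0.16, a gap of −0.59. Xist and Y-linked reads differ along the same libraries in both contrasts, and their part was not tested.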

How the results depend on the processing

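Member ratios, fits, isoform usage counts and isotype shares were recomputed under the alternatives, and no called value changed sign. Gene lists, isoform ratios and nearest profiles were not recomputed. With 1.5-fold in place of 2-fold, 6, 7 and 3 members were lower than in Tut1f/f, beside 21.3%, 22.3% and 18.5% of all genes, and 1 member (Tubb5) was higher in the library labelled Trp53 and 1 in that labelled double, beside 22% and 16.3%. The library labelled double then had 4 members higher than the library labelled Trp53 (9.59% of genes) and 3 higher than Tut1f/f;Cre (5.78%). Scaling to library totals took Tubb2a below 2-fold in Tut1f/f;Cre, and made 1 member (Tubb2a) higher in the library labelled double than in that labelled Trp53 (4.94% of genes). Leaving CT010467.1 out of the totals gave 2 members lower in the library labelled double (11.5% of genes). Annotated transcripts alone made 1 member, Tubb5, higher in the library labelled Trp53 (7.88% of genes). At 20 percentage points the usage calls became 0, 2 and 0, beside 4.76%, 5.07% and 3.22% of isoforms. For the Cre mRNA fit, members called ranged from 0 to 5 when a library was left out, 0 without the library labelled Trp53 (0 of 10328 genes called) and 5 without the library labelled double (12.7% of genes lower), and dropping the fold requirement gave 6 (11.5%); both alternatives were chosen after seeing the data. Per kb, Tubb5 held 17.6%, 38.5%, 47.1% and 32.5% of β and α genes 71.3%, 64.9%, 61.8% and 68.8% of the family; by annotated transcripts these were 54.0%, 62.7% and 46.1% for Tubb5 in the Cre mRNA libraries and 75.1%, 64.4%, 59.2% and 69.7% for α. The cause of these shifts was not tested. Pseudogene entries held no gene-named reads, so adding them changed nothing. Library totals shifted log2 ratios to the control by 0.10, 0.07 and 0.15. Tuba1c and Tubb3 are limited by depth, at 9 to 58 reads. No paired analysis was possible because each group has 1 library.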
